A study of Mus musculus with 11 samples.

Results

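The 10 genes described here make fatty acids or build and coat lipid droplets, and they are Srebf1, Fasn, Acaca, Acly, Scd1, Scd2, Elovl6, Dgat2, Plin2 and Plin3. They were chosen by gene name from a deposited count table, in which the counts of 24849 genes remained after entries with the same name were summed, and all 10 were found and tested. RNA was sequenced from AML12, an immortalized mouse hepatocyte line, in 11 libraries of polyadenylated RNA. The 4 KO libraries carry the genotype TXNDC5 Knockdown in the labels, although the methods describe a knockout made with CRISPR/Cas9 and HDR plasmids and selected with puromycin. The 3 WT libraries come from AML12 cells labelled WT, of which 1 is numbered 5-6. The 4 KI libraries carry the genotype TXNDC5 Knockin, which the design text places at the ROSA26 locus for overexpression. The methods describe AML12 culture with serum, insulin and dexamethasone. All groups derive from a single cell line, the number of clones behind KO and KI was not given, and nothing says that libraries of a group came from separate cultures. The p-values therefore measure only the spread between these libraries, which may be technical.

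In hepatocytes, citrate exported from mitochondria is cleaved to acetyl-CoA, carboxylated to malonyl-CoA and assembled into palmitate, which is then elongated, desaturated and esterified to triacylglycerol. Triacylglycerol is stored in lipid droplets whose surface is covered by perilipins. SREBP1, the product of Srebf1, is held in the membrane of the endoplasmic reticulum as a precursor and, once cleaved in the Golgi, activates most genes of this pathway, often together with the factor NF-Y, which binds CCAAT boxes.

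Most of the lipogenic members had higher mRNA levels in the KO than in the WT cells, whereas the perilipin members, Plin2 and Plin3, were lower. The differences of Fasn and Scd2 were near the threshold of significance, and that of Plin3 changed with the scaling of libraries. Plin4, a perilipin outside the members, was higher in KO than in WT. Scd1, Dgat2, Elovl6 and Srebf1 were raised in the KO libraries by 1.77- to 2.08-fold and Plin2 was 2.77-fold lower. In the KI cells, Elovl6 was 3.05-fold, Fasn 2.07-fold and Acaca 1.66-fold higher than in the WT cells, while Scd1 was 1.76-fold lower. Elovl6, Fasn and Acaca were also higher in KO than in WT, by 1.86-, 1.55- and 1.74-fold, so of these changes only that of Scd1 was opposite in KO. Set directly against each other, KO and KI libraries differed most in Scd1, which was 3.72-fold higher in KO, and in Plin2, which was 2.80-fold lower in KO.

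The sequence upstream of a start site is shown for Fasn, the synthase of the pathway, and for Plin2, the member that fell most in the KO libraries. RefSeq windows (GRCm38.p6) were found for 7 of the 10 members, and 250 bases before each start were searched on both strands. The core of a sterol regulatory element (TCACNCCAC), present in 1.05% of 32851 windows of the same length, was not matched in any of the 9 windows of members. The E-box CACGTG, present in 6.02% of all windows, was not matched in them either. CCAAT boxes, present in 33.8% of all windows, were matched in Fasn, Plin2, Plin3 and Srebf1. The windows of Fasn, at chr11:120824548-120824797, and of Plin2, at chr4:86670060-86670309, are both on the minus strand and are written 5′ to 3′ with CCAAT, or its reverse complement ATTGG, in capitals.
Fasn: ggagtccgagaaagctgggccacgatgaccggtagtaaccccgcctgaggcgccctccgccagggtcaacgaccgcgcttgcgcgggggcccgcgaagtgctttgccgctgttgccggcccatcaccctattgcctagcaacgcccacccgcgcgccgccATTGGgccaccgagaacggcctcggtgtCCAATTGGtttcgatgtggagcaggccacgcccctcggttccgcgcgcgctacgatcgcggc
Plin2: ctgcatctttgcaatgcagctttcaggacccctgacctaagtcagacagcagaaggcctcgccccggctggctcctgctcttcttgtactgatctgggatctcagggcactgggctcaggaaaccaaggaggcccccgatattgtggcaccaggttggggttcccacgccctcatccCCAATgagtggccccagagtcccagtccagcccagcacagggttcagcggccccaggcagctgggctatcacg
Fasn holds 3 matches, which begin 90, 62 and 59 bases before its start site, the last pair overlapping. Plin2 holds 1 match, which begins 73 bases before the start. A match of these letters is a description of the sequence and not of a bound site. At the shares given, 9 windows, of which 3 belong to Srebf1, are too few for a lack of matches to tell anything. Sequence outside the windows was not searched.

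Total counts per library ranged from 29840366 to 38422243. Levels are given as CPM, the counts of a gene relative to the library size, scaled by TMM over the 11 libraries, and a gene was called higher or lower where edgeR's quasi-likelihood test gave a Benjamini-Hochberg adjusted p under 0.05 over all genes tested. Txndc5, the targeted gene, had 10.2, 8.50, 12.9 and 9.39 CPM in KO 5 to 8, 147, 138 and 143 CPM in WT 5-6, 7 and 8, and 158, 179, 176 and 162 CPM in KI 5 to 8. It was 14.1-fold lower in KO than in WT (adjusted p = 4.09e-08), and its log2 difference between KI and WT was 0.24 (95% interval −0.03 to 0.51, adjusted p = 0.136). Every KI library was above every WT library, and the rise was not called with TMM but was called with library totals (0.57, adjusted p = 0.00623). A pair of newly assembled entries took 14.8 to 22.4% of the counts in WT, 6.41 to 8.45% in KO and 7.71 to 12.8% in KI. Where libraries were scaled by their totals rather than by TMM, the median log2 change of all genes moved from −0.03 to 0.38 for KO against WT, from −0.02 to 0.31 for KI against WT and from 0.00 to 0.06 for KO against KI, and the share of calls that were higher moved from 48.5 to 72.8%, from 50.2 to 76.3% and from 50 to 56.1%.

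Of the 11 hepatocyte markers examined, all 11 exceeded 3 counts in every KO library and 10 did so in every WT and KI library. Their summed level was 9191 to 11248 CPM in KO, 7409 to 9469 in WT and 7888 to 9409 in KI. In KO against WT, 4 of the 11 were called higher (Alb, Apoa1, Cps1 and Hnf4a) and 5 lower (Apoe, Fgb, Serpina1a, Trf and Ttr). Among all genes tested, 26.7% were called higher and 28.4% lower. In KI against WT, 3 of the 10 tested were called higher and 4 lower, beside 21.2% and 21.0% of all genes tested. Alb averaged 4114, 513 and 246 CPM in KO, WT and KI, and Trf 1346, 2974 and 1409 CPM. Of 6 cholangiocyte markers, the summed level was 1339 to 1503 CPM in KO, 2974 to 4379 in WT and 2604 to 3083 in KI. Spp1 carried most of that difference (246, 2520 and 1958 CPM on average). Of the 4 tested, 3 were called lower in KO than in WT, beside 28.4% of all genes tested, while Krt19 was higher (1097 against 770 CPM, adjusted p = 0.0117). Epcam was at 0 in all libraries and Cftr in the KO libraries, with at most 0.668 CPM on average elsewhere. Adipocyte markers, of interest because adipocytes also express the members, summed to 1.51 to 2.97 CPM in KO, 4.32 to 12.6 in WT and 2.43 to 4.96 in KI, and 4 of 6, among them Adipoq, Lep and Plin1, were at 0 in all libraries. Markers of fibroblasts and stellate cells, endothelial cells and leukocytes summed to at most 1.15, 0.425 and 9.56 CPM. In bulk RNA, fewer cells of a type and less RNA per cell cannot be told apart. The part of these markers in the results was not tested.

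**Figure D1:**
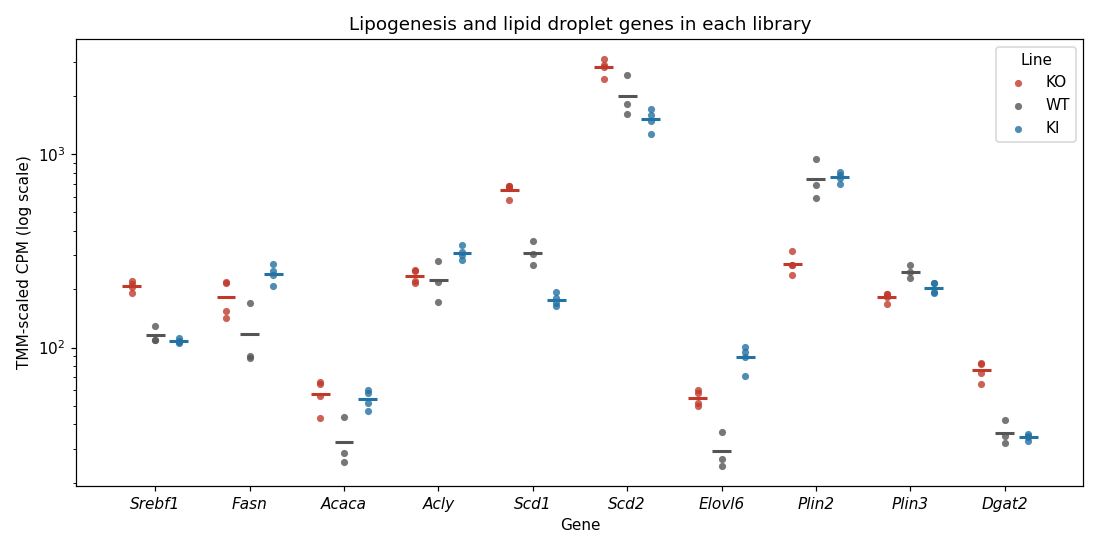
TMM-scaled CPM (log axis) of the 10 members in every KO, WT and KI library, with points for libraries and bars for group means. Srebf1, Scd1 and Dgat2 lie higher in all 4 KO libraries than in any other library, Plin2 lies lowest there, and Elovl6 is highest in KI.

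Among the members, 9 of 10 were called in KO against WT, 7 higher and 2 lower, where 55.1% of 13359 genes were called, 26.7% higher and 28.4% lower. The groups did not overlap for 6 members, against 55.3% of all genes, so separation alone was near the background. In KI against WT, 5 of 10 members were called, 4 higher and 1 lower, against 42.3% of 13534 genes, 21.2% higher and 21.0% lower, and 6 did not overlap, against 44.7%. In KO against KI, 8 of 10 were called, 4 higher and 4 lower, against 54.0% of 13269 genes, 27.0% in each direction, and 8 did not overlap, against 48.6%. The median log2 difference of the members was 0.72, −0.02 and −0.03 in these comparisons, and that of all genes tested was −0.03, −0.02 and 0.00. The members were chosen with earlier results of these data known, so the shares of all genes are background and do not test the members as a set. KO against WT and KI against WT use the same WT libraries, so their values are given side by side only.

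**Figure D2:**
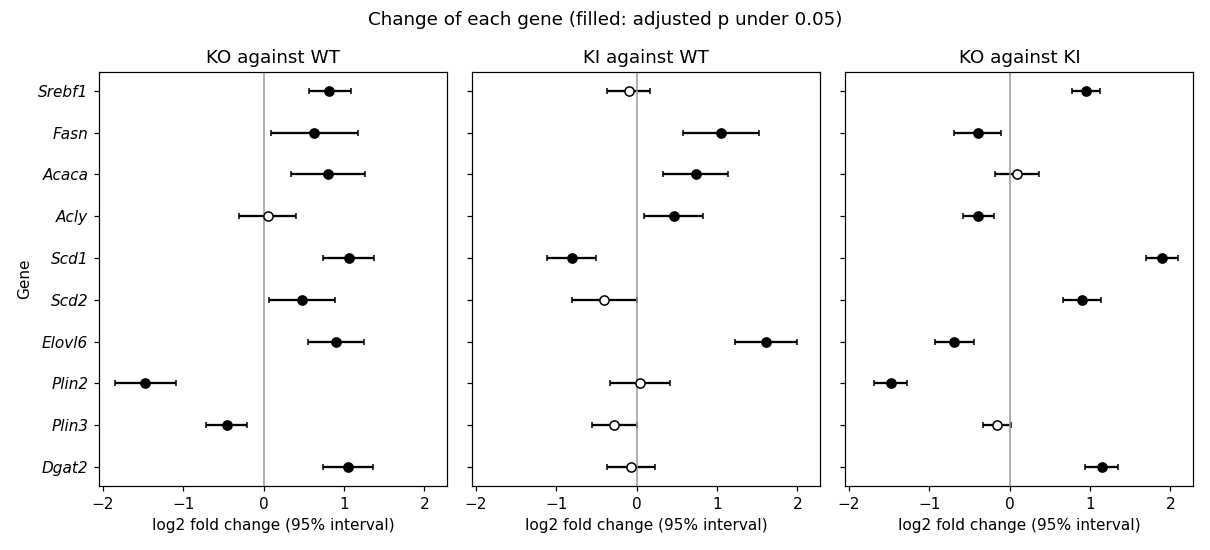
The log2 fold change of each member with its 95% interval in KO against WT, KI against WT and KO against KI. Filled points passed an adjusted p of 0.05 in edgeR's quasi-likelihood test, as 9, 5 and 8 of the 10 members did.

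Srebf1, the regulator of the pathway, was expressed at 192, 214, 205 and 222 CPM in KO 5 to 8, at 110, 109 and 129 CPM in WT 5-6, 7 and 8, and at 107, 108, 106 and 112 CPM in KI 5 to 8. Every KO library was above every WT and KI library, and the WT and KI ranges overlapped. The log2 change was 0.82 ± 0.12 (SE) in KO against WT (adjusted p = 0.000197) and 0.95 ± 0.08 in KO against KI (adjusted p = 1.07e-07). In KI against WT it was −0.10 (95% interval −0.37 to 0.17, adjusted p = 0.534), and 0.21 with library totals. The table sums over start sites, so SREBP1a and SREBP1c transcripts were not separated. Srebf2, which encodes the related regulator of sterol synthesis, averaged 303 ± 32.8 CPM in KO (SD, n = 4), 270 ± 46.0 in WT (n = 3) and 294 ± 12.6 in KI (n = 4) and was not called in any of the 3 comparisons (adjusted p = 0.419, 0.515 and 0.691). It passed the threshold in KO against WT with library totals (log2 0.54, adjusted p = 0.0311) and without WT 8 (0.32, adjusted p = 0.0403).

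Acly, ATP citrate lyase, supplies the cytosolic acetyl-CoA. Its levels were 216, 250, 222 and 253 CPM in KO, 173, 218 and 282 CPM in WT, and 311, 300, 340 and 284 CPM in KI. The KO range lay inside the WT range, and the lowest KI library was just above WT 8, the highest WT library. In KO against WT the log2 change was 0.05 (95% interval −0.31 to 0.41, adjusted p = 0.819). In KI against WT it was 0.46 ± 0.17 (adjusted p = 0.0445), a call that was lost without KI 5 (0.45, adjusted p = 0.0970), KI 6 (0.47, 0.0847), KI 7 (0.41, 0.114), WT 5-6 (0.30, 0.146) or WT 7 (0.44, 0.127). KO was lower than KI by 0.39 ± 0.09 on the log2 scale (log2 change −0.39, adjusted p = 0.00197), with no overlap.

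Acaca, acetyl-CoA carboxylase 1, which makes malonyl-CoA, was measured at 43.3, 64.4, 56.2 and 66.2 CPM in KO, 25.5, 28.3 and 43.8 CPM in WT and 60.3, 51.5, 58.1 and 46.9 CPM in KI. WT 8 reached the lowest KO library, KO 5, whereas all KI libraries were above WT. Acaca was higher in KO than in WT by a log2 change of 0.80 ± 0.21 (adjusted p = 0.00709) and in KI by 0.74 ± 0.19 (adjusted p = 0.00735). The 2 edited lines overlapped, with a log2 difference of 0.09 (95% interval −0.18 to 0.37, adjusted p = 0.578). Acacb, the carboxylase of the mitochondrial surface, had at most 28 counts in any library. It was called lower in KO than in WT (log2 −2.35, adjusted p = 0.0256), a call lost without KO 5 (−2.22, 0.0515), WT 7 (−2.28, 0.0852) or WT 8 (−2.12, 0.0804), and also with library totals (−1.96, 0.0566), without a filter (−2.33, 0.0627) or with all libraries in a single fit (−2.33, 0.0667).

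Fasn, the fatty acid synthase whose upstream sequence is shown above, had 142, 215, 155 and 219 CPM in KO, 90.6, 88.2 and 171 CPM in WT and 249, 236, 271 and 208 CPM in KI. WT 8 was above KO 5 and KO 7 and stood apart from the other WT libraries. All KI libraries were above all WT libraries, and the KO and KI ranges overlapped. The log2 change was 1.05 ± 0.22 in KI against WT (adjusted p = 0.0022). In KO against WT it was 0.63 ± 0.25 (adjusted p = 0.0484), which became 1.04 without WT 8 (adjusted p = 0.000303). It was not called without KO 6 (0.54, adjusted p = 0.122), KO 7 (0.70, 0.0538), KO 8 (0.53, 0.112), WT 5-6 (0.49, 0.151) or WT 7 (0.48, 0.190). In KO against KI the log2 change was −0.40 ± 0.14 (adjusted p = 0.0224), and this call was lost with library totals (−0.33, 0.0758), with all libraries in a single fit (−0.40, 0.112), and without KO 5 (−0.30, 0.0579), KO 7 (−0.33, 0.0830), KI 5 (−0.38, 0.0562) or KI 7 (−0.33, 0.0617).

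Elovl6, which elongates palmitate to stearate, had 49.8, 60.6, 51.5 and 58.3 CPM in KO, 24.5, 26.4 and 36.5 CPM in WT and 101, 89.4, 94.9 and 71.4 CPM in KI. The 3 groups did not overlap, with WT lowest and KI highest. The log2 change was 0.90 ± 0.16 in KO against WT (adjusted p = 0.000734), 1.61 ± 0.18 in KI against WT (adjusted p = 2.39e-05) and −0.69 ± 0.11 in KO against KI (adjusted p = 9.89e-05). These 3 calls held in every alternative, among them each library left out in turn.

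Scd1 and Scd2 encode stearoyl-CoA desaturases, which introduce the double bond of oleate and palmitoleate. Scd1 had 582, 686, 671 and 684 CPM in KO, 268, 306 and 357 CPM in WT and 193, 169, 181 and 164 CPM in KI. The groups were fully separated, with KO highest and KI lowest. Scd1 rose in KO against WT by a log2 change of 1.06 ± 0.15 (adjusted p = 0.000131) and fell in KI against WT by 0.81 on the same scale (SE 0.14, adjusted p = 0.000679). The KO to KI difference was 1.89 ± 0.09 (adjusted p = 2.79e-10). Scd2 had 2459, 2825, 2905 and 3105 CPM in KO, 1623, 1815 and 2559 CPM in WT and 1593, 1483, 1715 and 1274 CPM in KI. WT 8 again lay within the KO range, and WT and KI overlapped at their edges. Scd2 was higher in KO than in KI by 0.90 ± 0.11 (adjusted p = 8.43e-06). In KO against WT the log2 change was 0.48 ± 0.19 (adjusted p = 0.0484), or 0.72 without WT 8 (adjusted p = 0.000949). That call was lost without KO 6 (0.48, 0.103), KO 7 (0.47, 0.106), KO 8 (0.43, 0.119), WT 5-6 (0.37, 0.114) or WT 7 (0.44, 0.141). Between KI and WT it was −0.40 (95% interval −0.81 to 0.01, adjusted p = 0.106), which DESeq2 called (−0.42, 0.0368), as did edgeR without WT 5-6 (−0.53, 0.0407).

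Scd3 and Scd4, the other desaturase genes of the cluster, were far less abundant. Scd3 ranged from 0.925 to 6.72 CPM in KO, with KO 6 highest, from 2.14 to 4.57 in WT and from 1.64 to 4.45 in KI, and was not called in any of the 3 comparisons (adjusted p = 0.625, 0.492 and 0.993), although KO against WT without KO 6 gave −1.25 (0.0273). Scd4 had 3.42, 7.52, 4.14 and 10.1 CPM in KO, at most 0.981 in WT and at most 0.475 in KI. It was higher in KO than in WT by a log2 change of 3.41 ± 0.50 (adjusted p = 0.000202) and higher than in KI by 4.58 ± 0.53 (adjusted p = 4.23e-06). Between 1.13 and 4.85% of the 50-base stretches of a transcript of 1 Scd gene also occurred in another, so reads of these paralogs could be partly exchanged.

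Dgat2 encodes a diacylglycerol acyltransferase that completes triacylglycerol synthesis. It had 82.6, 64.7, 83.5 and 74.0 CPM in KO, 34.7, 32.1 and 42.1 CPM in WT and 32.8, 34.5, 34.9 and 35.9 CPM in KI. Every KO library was above every other library, and KI lay within the WT range. The log2 change was 1.05 ± 0.14 in KO against WT (adjusted p = 0.000114) and 1.15 ± 0.10 in KO against KI (adjusted p = 1.21e-07). Between KI and WT it was −0.07 (95% interval −0.37 to 0.23, adjusted p = 0.705), and 0.24 with library totals. Dgat1, a structurally unrelated enzyme with the same activity, averaged 19.5 ± 1.04 CPM in KO (SD, n = 4), 19.7 ± 2.53 in WT (n = 3) and 27.4 ± 1.34 in KI (n = 4). It was higher in KI than in WT by 0.48 ± 0.15 (adjusted p = 0.0191; without KI 5, 0.46 and 0.0576), and its KO against WT difference was −0.03 (95% interval −0.34 to 0.27, adjusted p = 0.853), against 0.39 with library totals (0.0330).

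Plin2, the perilipin found on droplets of most cells, had 316, 268, 266 and 237 CPM in KO, 947, 692 and 592 CPM in WT and 777, 810, 704 and 757 CPM in KI. All KO libraries were below all others, and KI lay inside the WT range. Plin2 fell by 1.47 on the log2 scale in KO against WT (SE 0.17, adjusted p = 4.61e-05) and by 1.48 in KO against KI (SE 0.10, adjusted p = 6.92e-09). Its log2 difference between KI and WT was 0.04 (95% interval −0.33 to 0.41, adjusted p = 0.883), which was −0.10 without WT 8 and was called with library totals (0.39, 0.0319).

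Plin3, a perilipin that is partly cytosolic and joins nascent droplets, had 190, 183, 189 and 167 CPM in KO, 267, 247 and 229 CPM in WT and 194, 215, 192 and 215 CPM in KI. The groups did not overlap, but KO and KI were separated by little. It was lower in KO than in WT, with a log2 change of −0.46 ± 0.12 (adjusted p = 0.00581), against −0.04 with library totals (0.768), where the median of all genes was 0.38. The other comparisons were not called, at −0.28 in KI against WT (95% interval −0.56 to −0.00, adjusted p = 0.0969) and −0.16 in KO against KI (95% interval −0.33 to 0.02, adjusted p = 0.117). Between KI and WT, Plin3 was called without WT 8 (−0.33, 0.0266), by DESeq2 (−0.30, 0.0300) and with all libraries in a single fit (−0.28, 0.0389), while library totals gave 0.05.

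The remaining perilipins differed from Plin2 and Plin3. Plin1, the adipocyte perilipin, had 0 counts in all 11 libraries. Plin4, abundant in adipose tissue and muscle, had 66.8, 69.9, 80.2 and 82.1 CPM in KO, 13.8, 12.6 and 22.7 CPM in WT and 7.77 to 10.4 CPM in KI, without overlap. Its log2 change was 2.17 ± 0.20 in KO against WT (adjusted p = 1.02e-05), −0.82 ± 0.21 in KI against WT (adjusted p = 0.00729; −0.53 and 0.121 with library totals) and 3.02 ± 0.12 in KO against KI (adjusted p = 3.21e-11). Plin5, the perilipin of oxidative tissues, had 8.02 to 12.9 CPM in KO and 9.45 to 17.9 CPM in WT but 0.303 to 0.699 CPM in KI, a log2 change of −4.85 ± 0.32 in KI against WT (adjusted p = 4.95e-07). In KO against WT it was −0.44 (95% interval −0.94 to 0.07, adjusted p = 0.128), and −0.62 without WT 8 (0.0182).

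**Figure D3:**
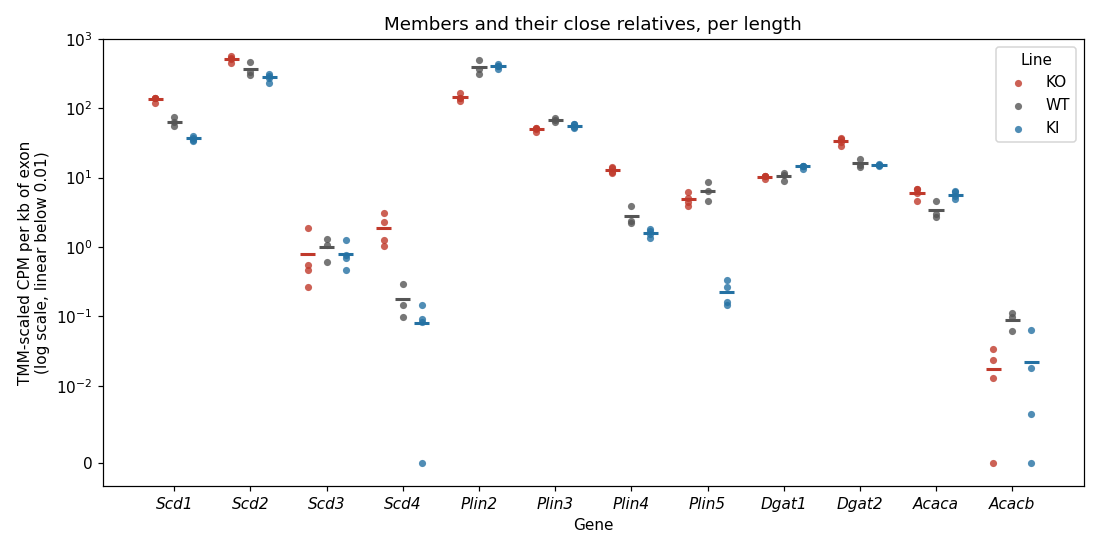
TMM-scaled CPM per kb of exon (log axis, linear below 0.01) of members and their relatives in every library, with bars for group means. Scd2 and Plin2 lead their families in all 3 groups, and Plin4 and Scd4 are highest in the KO libraries.

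Levels of different genes were compared per kilobase of exon. In WT, Plin2 (394 CPM per kb) and Scd2 (366) were the most abundant members and their libraries overlapped. Plin3 (67.9), Scd1 (64.2) and Acly (48.7) followed, each overlapping the next, then Srebf1 (27.0), Dgat2 (16.0), Fasn (11.6), Elovl6 (4.75) and Acaca (3.42), of which Dgat2 and Fasn overlapped, as did Elovl6 and Acaca. In KO, Scd2 (518 CPM per kb) stood alone above Plin2 (144) and Scd1 (136), which overlapped, and Acly, Plin3 and Srebf1 shared a range of 44.7 to 54.9 CPM per kb. In KI, Plin2 (404 CPM per kb) was above Scd2 (278) in every library, Fasn (24.0) overlapped Srebf1 (25.2), and Elovl6 (14.5) overlapped Dgat2 (15.3). The level of Scd2 per kb exceeded that of Scd1 in each group, and Dgat2 exceeded Dgat1 more in KO (33.7 against 10.3) than in KI (15.3 against 14.5).

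Ratios of counts between a pair of genes within a library do not depend on its scaling. The Scd1 to Scd2 ratio was 0.22 to 0.243 in KO, 0.14 to 0.169 in WT and 0.105 to 0.129 in KI, with no overlap. Its log2 difference was 0.57 ± 0.09 in KO against WT, −0.42 ± 0.11 in KI against WT and 0.99 ± 0.07 in KO against KI, each with an adjusted p of 0.0714 in a two-sided exact permutation test over 15 such tests. Exact p-values cannot fall below 0.0571 for 4 against 3 libraries or 0.0286 for 4 against 4, so no adjusted value passed the threshold. The Plin2 to Plin3 ratio was 1.40 to 1.66 in KO, below 2.59 to 3.55 in WT and 3.53 to 4.01 in KI. The Dgat2 to Dgat1 ratio was 3.24 to 4.66 in KO, 1.58 to 2.49 in WT and 1.16 to 1.38 in KI, again without overlap. Fasn counts relative to Srebf1 were 1.86 to 2.56 in KI, above 0.806 to 1.32 in WT and 0.737 to 1.00 in KO, which overlapped each other. Scd1 relative to Fasn was 0.668 to 0.792 in KI, below 2.09 to 3.47 in WT and 3.13 to 4.33 in KO.

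**Figure D4:**
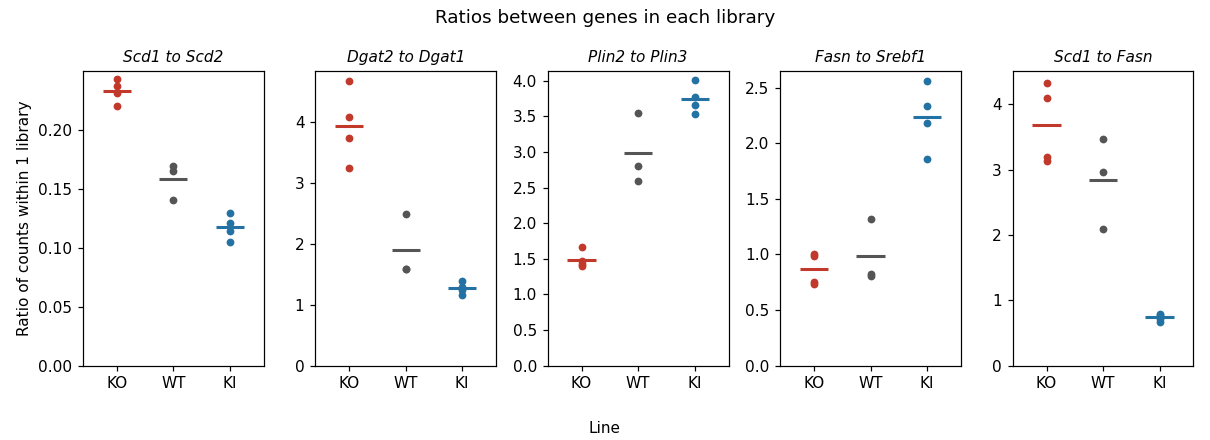
Ratio of the counts of a pair of genes within each library, with 1 point per library and bars for group means. The KO, WT and KI libraries separate for Scd1 to Scd2 and Dgat2 to Dgat1, whereas Fasn to Srebf1 and Scd1 to Fasn set only the KI libraries apart.

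The WT libraries varied more than the edited lines, with a median coefficient of variation over the members of 23.3%, against 9.51% in KO and 7.37% in KI. Over 12802 genes these medians were 20.4, 11.7 and 12.5%. WT 8 was the highest WT library for 8 of 10 members, where it was highest for 42.4% of genes. It was above the mean of the other WT libraries by 0.94 (Fasn), 0.70 (Acaca), 0.57 (Scd2), 0.53 (Acly) and 0.52 (Elovl6) on the log2 scale, and below it for Plin2 (−0.47) and Plin3 (−0.17). Without WT 8, the KO against WT log2 changes were 1.04 for Fasn, 1.10 for Acaca, 1.12 for Elovl6 and −1.58 for Plin2, and 9 members were called as before. KI 8 was the lowest KI library for 6 of 10 members, against 31.8% of genes, and KO 5 the lowest KO library for 7 of 10, against 30.9% of genes. The members lie on 6 chromosomes of GRCm38.p6, whose tested genes had different median log2 changes in KO against WT. The median was −0.34 on chromosome 11, which holds Srebf1, Fasn, Acaca and Acly, and −0.34 on chromosome 19, which holds Scd1 and Scd2. It was 0.52 on chromosome 7 (Dgat2), 0.30 on chromosome 4 (Plin2), and 0.13 on chromosomes 3 (Elovl6) and 17 (Plin3). The part of these chromosome-wide values in the results was not tested.

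Companion genes of the pathway were read from 6 lists with 94 genes. In KO against WT, 24 of the 80 tested were higher and 12 lower, with a median log2 change of 0.13. In KI against WT, 13 of 78 were higher and 20 lower (median −0.05), and in KO against KI 34 of 79 were higher and 17 lower (median 0.17). The shares called were 45.0, 42.3 and 64.6%, beside 55.1, 42.3 and 54.0% of all genes tested. By list, in the order below, 33.3, 53.8, 44.4, 46.2, 46.7 and 50% were called in KO against WT, all under 55.1%. In KI against WT these shares were 40, 50, 27.8, 61.5, 42.9 and 33.3%, beside 42.3%. In KO against KI they were 60, 66.7, 44.4, 61.5, 86.7 and 83.3%, beside 54.0%.

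Of the 15 regulators of lipogenesis, 4 were higher and 1 lower in KO against WT, and 3 were higher and 3 lower in KI against WT. Insig2, which retains SCAP and SREBP in the endoplasmic reticulum, was lower in both edited lines, with 60.3 ± 7.53 CPM in KO (SD, n = 4) and 70.3 ± 5.74 in KI (n = 4) against 147 ± 22.7 in WT (n = 3). Its log2 changes were −1.30 (adjusted p = 3.37e-05) and −1.06 (adjusted p = 0.000101). The related Insig1 went the other way, at 125 CPM in KO and 144 in KI against 98.4 in WT on average. Insig1 was called higher in KI than in WT (log2 0.55, adjusted p = 0.0114) but not in KO against WT (0.32, adjusted p = 0.055). Scap, the escort of SREBP, was higher in both, at 39.2 ± 3.98 CPM in KO and 35 ± 0.835 in KI against 22.6 ± 5.51 in WT (log2 0.77 and 0.63, adjusted p = 0.00262 and 0.00815). Mlxipl, the carbohydrate-responsive factor ChREBP, averaged 16.6 ± 2.91 CPM in KO, 14.7 ± 3.91 in WT and 4.97 ± 1.18 in KI, and was lower in KI than in WT (log2 −1.57, adjusted p = 0.000211). Pparg, a nuclear receptor of lipid storage, was higher in KI than in WT (11 ± 0.44 against 6.43 ± 1.12 CPM, log2 0.78, adjusted p = 0.0042).

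Among 13 genes of fatty acid synthesis and supply, 4 were higher and 3 lower in KO against WT. Acss2, which makes acetyl-CoA from acetate, had 46.5 to 54.8 CPM in KO, 13.7 to 19.7 in WT and 10.9 to 13.9 in KI, and its log2 change in KO against WT was 1.64 ± 0.15 (adjusted p = 1.01e-05). Mecr, of mitochondrial fatty acid synthesis, was higher in KO (log2 1.42, adjusted p = 3.31e-05) and in KI (1.26, adjusted p = 0.000172) than in WT. Idh1, a cytosolic source of NADPH, was lower in both, at 226 to 321 CPM in KO and 399 to 545 in KI against 590 to 961 in WT (log2 −1.63 and −0.90, adjusted p = 4.61e-05 and 0.00244). Pgd, another such source, was higher in KO and KI than in WT (log2 1.11 and 0.73, adjusted p = 3.49e-05 and 0.00211). In the list of 22 elongases, desaturases and acyl-CoA synthetases, 18 were tested, and 7 were higher and 1 lower in KO against WT. Acsl1, which activates long-chain fatty acids, had 43.3 to 52.2 CPM in KO, 17.5 to 29.8 in WT and 14.7 to 17.3 in KI (log2 1.07 in KO against WT, adjusted p = 0.000475). The gene that fell was Acsl4, another acyl-CoA synthetase, with 279 to 310 CPM in KO, 642 to 650 in WT and 475 to 555 in KI. Its log2 change in KO against WT was −1.14 (adjusted p = 1.77e-05). Elovl1, an elongase of very long chains, was higher in KO (log2 0.87, adjusted p = 0.000267) and KI (0.85, adjusted p = 0.00248) than in WT.

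Triacylglycerol synthesis was covered by 15 genes, of which 13 were tested, with 4 higher and 2 lower in KO against WT and 4 in each direction in KI against WT. Gpat3, a glycerol-3-phosphate acyltransferase, had 2.74 to 4.34 CPM in KO, 0.535 to 0.807 in WT and 0.209 to 0.937 in KI (log2 2.33 in KO against WT, adjusted p = 0.000178). Mogat2, a monoacylglycerol acyltransferase, was 4.01-fold lower in KO (adjusted p = 0.000401) and 5.11-fold lower in KI (adjusted p = 1.19e-05) than in WT, where it had 6.87 to 8.96 CPM. Of the 19 genes of droplet coat and assembly, 15 were tested in KO against WT, with 3 higher and 4 lower, and in KO against KI 9 of 15 were higher and 4 lower. Fitm2, which promotes droplet formation at the endoplasmic reticulum, averaged 19.7 ± 2.52 CPM in KO against 7.84 ± 0.322 in WT and 6.77 CPM in KI (log2 1.31 in KO against WT, adjusted p = 4.92e-05). Hilpda, an inhibitor of adipose triglyceride lipase on droplets, had 16.4 to 25.9 CPM in KO, 40.1 to 62.4 in WT and 43.5 to 60.7 in KI, and was lower in KO than in WT (log2 −1.52, adjusted p = 0.00011). Hsd17b13, a droplet protein of the liver, was lower in KO (log2 −1.38, adjusted p = 0.000341) and in KI (−3.74, adjusted p = 4.15e-07) than in WT.

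Of 10 genes of triacylglycerol lipolysis, 6 were tested, with 2 higher and 1 lower in KO against WT and 2 lower in KI against WT. Pnpla3, a droplet protein related to adipose triglyceride lipase, had 5.98 to 7.46 CPM in KO, 0.624 to 1.45 in WT and 0.821 to 2.18 in KI, with a log2 change of 2.57 ± 0.29 in KO against WT (adjusted p = 3.95e-05). G0s2, an inhibitor of that lipase, averaged 9.36 ± 1.54 CPM in KO and 16.6 ± 3.98 in KI against 32.1 ± 12.2 in WT (log2 −1.80 and −0.95, adjusted p = 0.000139 and 0.00962, the latter not called without WT 5-6, −0.69 and 0.0599, or with library totals, −0.59 and 0.0527). Hilpda and G0s2, which inhibit the lipase, were lower in KO than in WT, as was Plin2. Pnpla2, which encodes that lipase, and Abhd5, its activator, were not called in KO against WT (log2 0.24 and −0.15, adjusted p = 0.261 and 0.384). The part of these genes in lipolysis was not tested.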

How the data were processed

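RNA of AML12 KO (4), WT (3) and KI (4) libraries was sequenced by a provider, which cleaned, mapped and quantified the reads. The deposited values used are raw counts per gene entry as the authors gave them, without normalization. The submitters' processing notes name HISAT2, TopHat2, Bowtie2 and StringTie with no role or version, and the genome build and counting tool are not given in the sources used here. FPKM columns, in which decimal points were lost, and columns of the authors' own comparisons (DESeq2 fold changes and adjusted p-values) were not used.

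Of 26472 lines, 10 with broken fields were left out, and the counts of 26462 (2960 of them newly assembled entries) were summed by gene name to 24849 genes. No pair of libraries within a group agreed within counting noise (chi-square per degree of freedom 17.2 or more). Totals of 29840366 to 38422243 counts set the precision, and intervals from counts cover the spread between libraries only. Each comparison used the libraries of its 2 groups in edgeR 4.0.16 (R 4.3.3): filterByExpr, TMM, a robust quasi-likelihood test, Benjamini-Hochberg adjustment over all genes tested and calls under 0.05. Standard errors and 95% intervals of fitted changes were derived from the log2 change and F statistic of that test and are approximate. The procedure was tested on simulated data. The simulation had few changed genes, balanced in direction, with the same spread for all genes and no shift in composition. It therefore checked that the script runs as intended and not how the fit behaves on data like these. Per-library CPM were scaled by TMM over all 11 libraries, so ratios of their means can differ slightly from fitted changes. Exon lengths are merged exons of GENCODE M21 and are approximate for this table. Ratios of genes were tested by exact two-sided permutation (scipy 1.17.1), and figures were drawn with matplotlib 3.10.9 (Python 3.11.15).

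The members and lists were chosen with earlier results of these data known. Candidate companion genes were the close relatives of members and those named by a rule. The rule took up to 2 rises and 2 falls per list and comparison among called genes whose groups did not overlap. Only part of these candidates was printed, and Ppargc1b, Lpin3, Fads6, Lpcat1, Cideb and Lipe are among those left out. Acsl4 and Abhd5, which the rule also named, and Insig1, Pgd and Pnpla2, which it did not, were printed for context. These genes are not among the 24 companions followed through the alternatives. All printed companions, the gene pairs for ratios and the features singled out by library or chromosome were chosen after their values were seen. Alternatives were library totals, DESeq2 1.42.0, no filter on low counts, all libraries in a single fit, a replicate block, leaving out the 2 largest new entries, and leaving out each library.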

Additional observations from a re-analysis of the deposited data

Results flagged for a closer look

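The members, Txndc5 and the 24 companions followed through the alternatives were searched, in 70 groups of 4 libraries. Of these groups, 4 had a library far from the others by Dixon's criterion, where chance gives about 1 in 20, or 3.5. They were Scd1 in KO 5, whose gap to the next library was 0.852 of the group's range, Hilpda in KO 5 (0.852), Dgat1 in KI 7 (0.849) and Idh1 in KI 8 (0.847).

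The changes of KO and KI from the shared WT libraries differed for 8 members, as tested by edgeR's quasi-likelihood test of KO against KI. The log2 difference was 0.95 for Srebf1, 1.89 for Scd1, 0.90 for Scd2 and 1.15 for Dgat2, and it was −0.40 for Fasn, −0.39 for Acly, −0.69 for Elovl6 and −1.48 for Plin2. Of the 24 companions followed through the alternatives, which were chosen after their values were seen, 15 differed. Of all 79 companions tested, 34 were higher and 17 lower in KO than in KI, where 54% of all genes tested were called. KO exceeded KI for Scd4 (4.58), Plin5 (4.44), Plin4 (3.02), Gpat3 (2.49), Hsd17b13 (2.38), Acss2 (2.04), Pnpla3 (1.98), Mlxipl (1.75), Acsl1 (1.62) and Fitm2 (1.55). KO was below KI for Hilpda (−1.49), Pparg (−0.99), G0s2 (−0.83), Idh1 (−0.70) and Dgat1 (−0.49).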

How the results depend on the processing

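The members called numbered 7 to 9 in KO against WT, 4 to 7 in KI against WT and 7 to 8 in KO against KI over all alternatives. Of the alternative values of members, 118 of 130, 112 of 130 and 134 of 140 kept direction and side of the threshold. The replicate block joined libraries with the same number, and in the comparisons with WT it put replicates 5 and 6 with WT 5-6. It gave 9, 4 and 8 called members, and only Acly in KI against WT lost its call (0.52, adjusted p = 0.0537). Correlations of deviations between libraries with the same replicate number ran from −0.19 to 0.214, with 3 of 8 above 0. They were 0.0159 and 0.214 in KO against WT and −0.0694 and −0.19 in KI against WT, each for replicates 7 and 8 only. In KO against KI they ran from −0.0933 to 0.0189. With the block, genes called rose from 7364 to 8183 in KO against WT. Genes called fell from 5722 to 4891 in KI against WT and from 7171 to 6453 in KO against KI. Fasn and Scd2 kept their calls in KO against WT, with lower adjusted p-values. These values differ between comparisons and do not decide whether the numbers pair libraries. Directions turned mostly for values near 0, and the cause was not tested. With library totals, log2 changes became 0.04 (Scd3), 0.00 (Plin5), 0.39 (Dgat1) and 0.20 (Pparg) in KO against WT, 0.21 (Srebf1), 0.05 (Plin3), 0.24 (Dgat2), 0.17 (Gpat3), 0.34 (Hilpda) and 0.11 (Fitm2) in KI against WT, and 0.06 (Scd3) in KO against KI. Without a filter, Hilpda was 0.01 in KI against WT. With single libraries left out, ranges crossed 0 in KO against WT for Acly (−0.09 to 0.27) and Dgat1 (−0.10 to 0.07), in KI against WT for Plin2 (−0.10 to 0.25), Dgat2 (−0.15 to 0.05), Gpat3 (−0.42 to 0.15) and Hilpda (−0.18 to 0.10), and in KO against KI for Scd3 (−0.90 to 0.30), Mogat2 (−0.00 to 0.55), Srebf2 (−0.02 to 0.10) and Elovl1 (−0.08 to 0.15). Acacb had at most 28 counts in a library, and its call in KO against WT kept its side of the threshold in 7 of 13 alternatives.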
